A study of Mus musculus with 12 samples.

Results

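The enzymes of macrophage arginine, nitric oxide and itaconate metabolism were represented by 8 genes, Nos2, Gch1, Slc7a2, Ass1, Asl, Arg1, Arg2 and Acod1, out of 54232 genes in the count table. They were taken by symbol through their Ensembl identifiers, and all 8 were found. Earlier results of these data were known when the set was chosen. The cells were RAW 264.7, a mouse macrophage line. Wild-type cells and the knockouts Ing4-/- and Socs1-/- were each left untreated or given 100 ng/ml lipopolysaccharide (LPS, a component of the outer membrane of Gram-negative bacteria) for 3 h, with 2 libraries in each of the 6 groups. The series title calls both knockouts E3 ligase knockouts, E3 ligases being proteins that direct the attachment of ubiquitin. The labels do not say how the knockouts were made or whether each is 1 clone. Nor do they say that a group's libraries had separate cultures as their origin, and p-values here reflect library-to-library spread alone, which may be technical.

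Macrophages that sense LPS switch on inducible nitric oxide synthase, which turns arginine into citrulline and nitric oxide, a gas that kills microbes. The reaction needs tetrahydrobiopterin, arginine taken up through cationic amino acid transporters, and recycling of citrulline to arginine, while arginases draw on the same arginine to make ornithine and urea. A further enzyme induced by LPS diverts aconitate from the tricarboxylic acid cycle to itaconate, a metabolite that limits inflammation and bacterial growth.

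Promoter sequences were at hand only for 3 of the 8 genes, Ass1, Acod1 and Gch1. All 3 genes stood higher in both LPS-treated libraries than in both untreated ones within each genotype. That order held for 30.7% of all tested genes in wild type, 29.1% in Ing4-/- and 22.5% in Socs1-/-. The upstream sequences are shown because they differed in kind. Each is the 250 bases before the RefSeq start, 5′ to 3′ on the strand of the gene, build GRCm38.p6, with matches to the searched motifs in capitals. They lie at chr2:31470020-31470269 on the plus strand (Ass1), chr14:103046762-103047011 on the plus strand (Acod1) and chr14:47189414-47189663 on the minus strand (Gch1). By the gene positions given below, Ass1 begins at 31470207 and Acod1 at 103046977, inside these windows. Motif distances are counted from the RefSeq start.
Ass1: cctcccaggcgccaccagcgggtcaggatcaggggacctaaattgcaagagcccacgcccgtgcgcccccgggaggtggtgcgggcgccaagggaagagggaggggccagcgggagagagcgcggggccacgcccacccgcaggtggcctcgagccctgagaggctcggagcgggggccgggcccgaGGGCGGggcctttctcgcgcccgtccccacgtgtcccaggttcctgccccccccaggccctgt
Acod1: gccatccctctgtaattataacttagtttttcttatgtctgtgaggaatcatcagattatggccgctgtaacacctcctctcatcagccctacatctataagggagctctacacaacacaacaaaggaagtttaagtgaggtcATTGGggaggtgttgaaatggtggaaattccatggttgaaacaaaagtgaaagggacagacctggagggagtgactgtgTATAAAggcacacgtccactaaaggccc
Gch1: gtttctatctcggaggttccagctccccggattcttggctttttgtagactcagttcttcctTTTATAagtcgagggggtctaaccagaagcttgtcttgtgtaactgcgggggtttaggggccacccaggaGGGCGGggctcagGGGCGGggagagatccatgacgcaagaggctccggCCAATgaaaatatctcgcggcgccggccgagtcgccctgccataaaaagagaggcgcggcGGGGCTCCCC
The searched motifs, on both strands, were the TATA box TATAAA, the CCAAT box CCAAT, the GC box GGGCGG, the NF-kB site by name, the interferon-stimulated response element (GAAA, any 2 bases, GAAA), the interferon-gamma activated site TTCNNNGAA and the AP-1 site TGANTCA. The Acod1 promoter held TATAAA from 28 to 23 bases before the start and a CCAAT box on the opposite strand from 107 to 103, with 2 CpG dinucleotides and 44.4% G and C. The Ass1 promoter held 1 GC box from 63 to 58 bases before the start, 23 CpG and 75.6% G and C. The Gch1 promoter held 17 CpG, GC boxes at 118 to 113 and 105 to 100, a CCAAT box at 70 to 66, TATAAA on the opposite strand at 188 to 183, and a match to the NF-kB site in the last 10 bases, which matched on both strands. Against a median of 6 CpG over 32851 promoters, Acod1 was thus poor in CpG (18.8% of promoters had fewer), and Ass1 and Gch1 were rich (86.7% and 76.5% had fewer). Of promoters of the same length, 12.4% held TATAAA, 33.8% CCAAT, 32.7% GGGCGG and 7.25% the NF-kB site. The interferon-stimulated response element (2.98% of promoters), the interferon-gamma activated site (7.02%) and the AP-1 site (6.75%) had no match in these 3 windows.

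The libraries held 17250815 to 24377950 counts. Levels are given as CPM, counts out of every 1000000 in a library after TMM scaling, which evens out differences in composition, and 3 counts correspond to 0.123 to 0.174 CPM before that scaling. Of 10 macrophage markers 10 were tested, with a summed level of 12870 to 24630 CPM. Their levels differed widely. Lyz2 was the highest (6612 to 17000 CPM), Cd68 lay between 678.8 and 1141 CPM, and Mertk was the lowest (0 to 7.10 CPM). By contrast, T, B and NK cell markers summed to at most 0.349 CPM and 6 of 9 were at 0 throughout. The Ing4 transcript did not tell its knockout apart, with 2 to 10 counts in wild type and 6 to 29 in Ing4-/-. Socs1 had 4 to 12 counts in every untreated library. After LPS both Socs1-/- libraries (67 and 127 counts) lay below the 4 others (148 to 185). These counts are not scaled for depth, and 1 of the 2 libraries is the deviating one described next. As Socs1 was itself higher after LPS, this order cannot tell a lost transcript from a weaker LPS response. The first LPS-treated Socs1-/- library stood apart, at -16.19 on the first principal component against 62.45 to 74.36 for the other LPS-treated libraries and -66.12 to -41.65 for the untreated ones. Results are therefore given with all 12 libraries and without it. In the second case that group has 1 library, which is assumed to vary like the others.

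**Figure D1:**
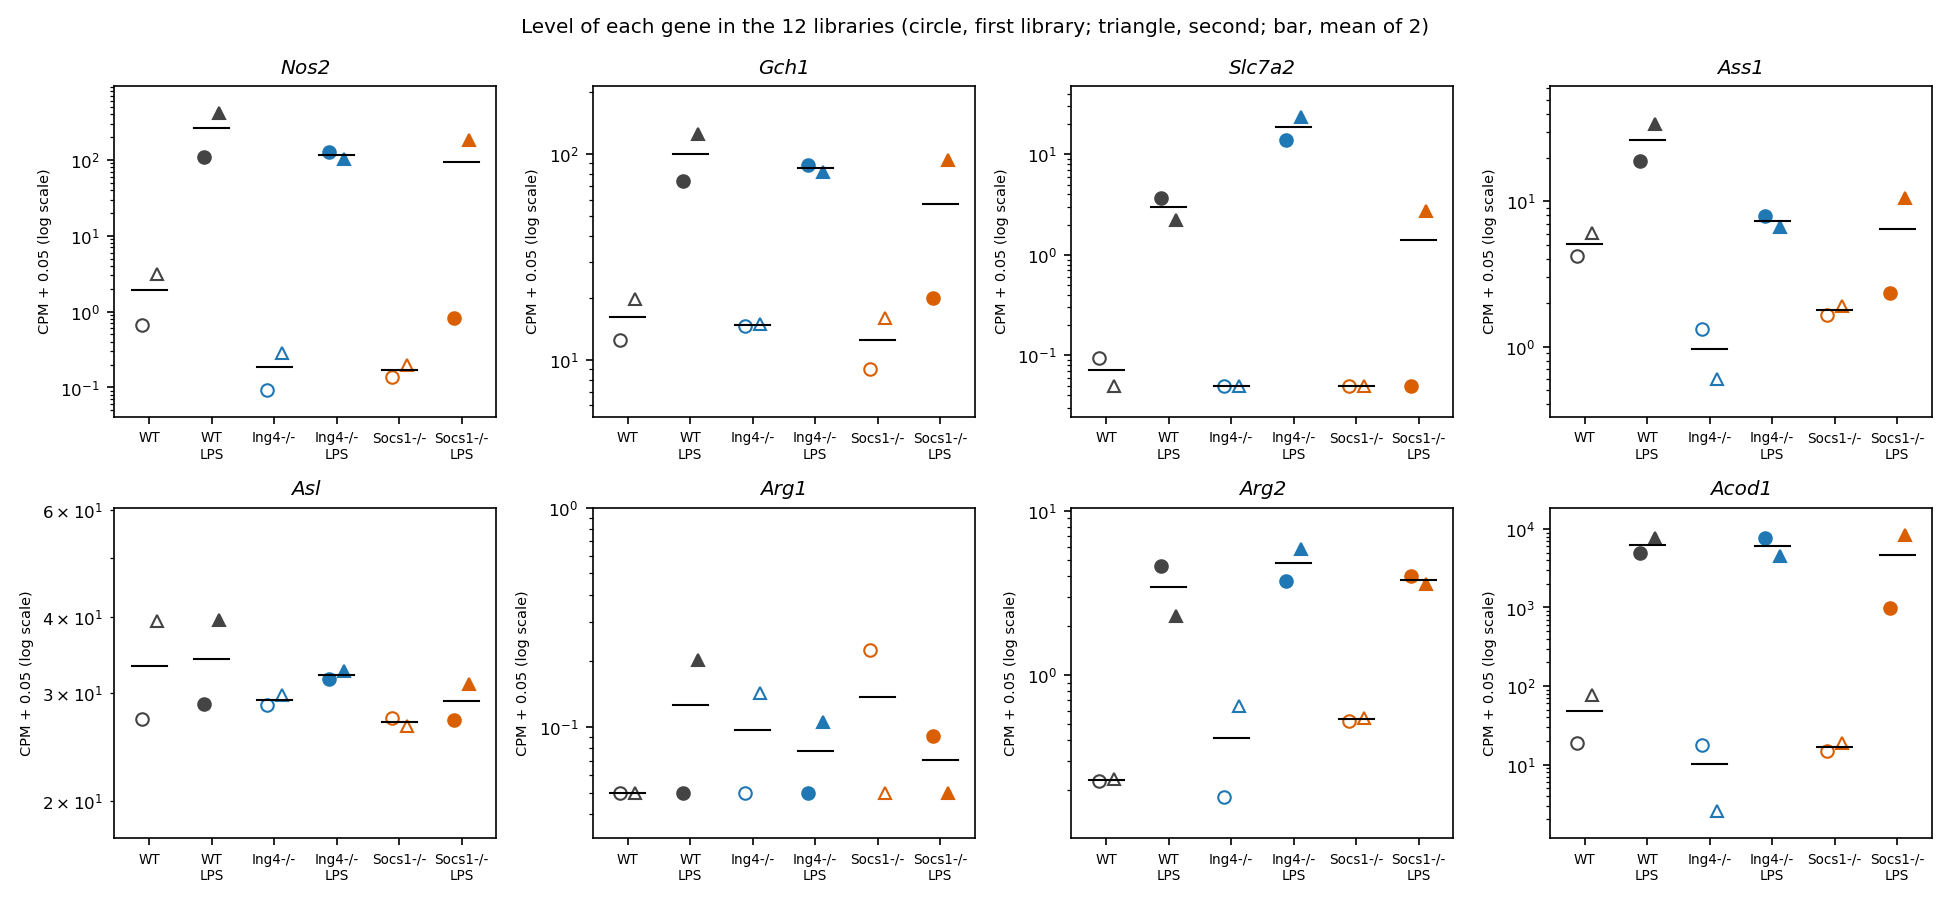
Level of each of the 8 genes in the 12 libraries, as CPM plus 0.05 on a log axis, by genotype (WT, wild type) and treatment. Open symbols are untreated and filled symbols LPS-treated libraries, circles the first and triangles the second library of a group, and bars the mean of 2. Acod1, Arg2 and Gch1 are the genes whose 6 LPS-treated libraries all lie above the 6 untreated ones.

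Nos2 encodes inducible nitric oxide synthase (ENSMUSG00000020826, chromosome 11, 78920787 to 78960254, plus strand, GRCm38). Its level was 0.615 and 3.12 CPM in untreated wild type and 110.2 and 412.5 CPM after LPS. In Ing4-/- it was 0.0436 and 0.231 CPM untreated and 128.7 and 103.0 CPM after LPS. In Socs1-/- it was 0.0867 and 0.149 CPM untreated, and 0.774 and 185.3 CPM after LPS. Thus 5 of the 6 LPS-treated libraries lay above 100 CPM, and the first LPS-treated Socs1-/- library, with 19 counts, lay below the higher untreated wild-type library. Wild-type means were 1.87 ± 1.77 CPM untreated and 261.4 ± 213.8 CPM after LPS (SD, n = 2), so the spread within a group was nearly as large as its mean. In bulk RNA a smaller share of responding cells and less RNA in each of them cannot be told apart. With all 12 libraries and no pairing the log2 change in wild type was 7.13 (SE 2.02) and did not pass (edgeR adjusted p = 0.097), and neither did that in Ing4-/- (9.68, SE 2.5, adjusted p = 0.052) or Socs1-/- (9.57, SE 2.54, adjusted p = 0.11). Without the first LPS-treated Socs1-/- library Nos2 rose in all 3 genotypes, on the log2 scale in wild type by 7.13 (edgeR, SE 0.893, adjusted p = 0.0022), in Ing4-/- by 9.69 (adjusted p = 0.0012) and in Socs1-/- by 10.57 (adjusted p = 0.0016). The labels do not pair untreated and LPS-treated libraries. With all 12 libraries and library numbers taken as pairs, the edgeR adjusted p were 0.0046, 0.003 and 0.01 in wild type, Ing4-/- and Socs1-/-. The adjusted p in wild type ran from 4.2e-100 to 0.37 over the 19 alternatives run.

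Gch1 encodes GTP cyclohydrolase, the first and rate-limiting enzyme of tetrahydrobiopterin synthesis (ENSMUSG00000037580, chromosome 14, 47153895 to 47189413, minus strand). It was expressed before treatment, with 12.4 and 19.7 CPM in untreated wild type, 14.5 and 14.8 CPM in untreated Ing4-/- and 8.98 and 15.9 CPM in untreated Socs1-/-. LPS-treated wild-type libraries held 73.7 and 125.1 CPM, and LPS-treated Ing4-/- libraries 88.0 and 82.2 CPM. In LPS-treated Socs1-/- the libraries held 19.9 and 93.8 CPM. All 6 LPS-treated libraries lay above all 6 untreated ones, the lowest by a narrow margin (19.9 against 19.7 CPM). The log2 changes of 2.63 in wild type (SE 0.655, edgeR adjusted p = 0.072), 2.53 in Ing4-/- (SE 0.653, adjusted p = 0.051) and 2.19 in Socs1-/- (SE 0.648, adjusted p = 0.15) did not pass with all libraries. Once the first LPS-treated Socs1-/- library was left out, Gch1 rose by 2.63, 2.54 and 2.92 on the log2 scale (edgeR adjusted p = 0.0019, 0.0016 and 0.002). This was a change of about 6-fold in wild type, against about 140-fold for Nos2. Over the alternatives the adjusted p in wild type ran from 1.8e-19 to 0.34.

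Slc7a2 encodes CAT2, a cationic amino acid transporter that brings arginine into activated macrophages (ENSMUSG00000031596, chromosome 8, 40862396 to 40922308, plus strand). Untreated cells held 1 count in 1 wild-type library and 0 in the other 5 libraries. After LPS there were 68 and 43 counts in wild type, 289 and 423 in Ing4-/-, and 0 and 48 in Socs1-/-. As levels these were 3.65 and 2.18 CPM in wild-type cells, 13.7 and 23.4 CPM in Ing4-/-, and 0 and 2.70 CPM in Socs1-/-. Both LPS-treated Ing4-/- libraries lay above every other library. Of all tested genes, 19.4% had both of them above both LPS-treated wild-type libraries. Slc7a2 was thus close to undetected without LPS in every genotype. By raw ratio it was 104-fold higher after LPS in wild type (exact binomial 95% interval 18.3 to 4140, counting error only). With the untreated group set to a floor of 3 counts in all, it was at least 216-fold higher in Ing4-/-, and at least 13.5-fold higher in Socs1-/-, where all 48 counts came from the second library. It rose in Ing4-/- with all 12 libraries (edgeR adjusted p = 0.046) and did not pass in wild type (0.14) or Socs1-/- (0.25). It rose in all 3 once the first LPS-treated Socs1-/- library was left out (edgeR adjusted p = 0.0022, 0.00034 and 0.0027 in wild type, Ing4-/- and Socs1-/-), and in wild type its adjusted p ran from 2.7e-17 to 0.45 over the alternatives.

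Ass1 and Asl encode argininosuccinate synthase and argininosuccinate lyase, the pair that returns citrulline to arginine. Ass1 (ENSMUSG00000076441, chromosome 2, 31470207 to 31520672, plus strand) had levels of 4.13 and 5.98 CPM in untreated wild type and 19.0 and 33.8 CPM after LPS. In Ing4-/- it stood at 1.26 and 0.553 CPM untreated and 7.89 and 6.59 CPM after LPS. In Socs1-/- it stood at 1.60 and 1.84 CPM untreated and 2.28 and 10.5 CPM after LPS. Within each genotype both LPS-treated libraries lay above both untreated ones (an order held by 30.7%, 29.1% and 22.5% of all tested genes in wild type, Ing4-/- and Socs1-/-), but LPS-treated knockout cells reached levels near those of untreated wild type. The log2 change was 2.39 in wild type (SE 0.651, edgeR adjusted p = 0.087) and 1.87 in Socs1-/- (SE 0.667, adjusted p = 0.21), and in Ing4-/- it rose by 2.98 (SE 0.704, adjusted p = 0.04). Without the first LPS-treated Socs1-/- library Ass1 rose in wild type (2.39), Ing4-/- (2.98) and Socs1-/- (2.6), with edgeR adjusted p = 0.0041, 0.0018 and 0.0059. The wild-type adjusted p ran from 3.1e-08 to 0.36 over the alternatives.

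Asl (ENSMUSG00000025533, chromosome 5, 130011258 to 130029247, minus strand) was the steady gene of the 8. Its level in all 12 libraries lay between 26.5 and 39.6 CPM, and untreated and LPS-treated libraries overlapped. Group means ran from 26.9 ± 0.531 CPM in untreated Socs1-/- to 34.15 ± 7.65 CPM in LPS-treated wild type (SD, n = 2). Of neighbours in the order of group means, untreated and LPS-treated Ing4-/- (29.2 ± 0.859 and 32.1 ± 0.710 CPM) did not overlap, and the other neighbours did. The log2 change with LPS was 0.04 in wild type (SE 0.215, edgeR adjusted p = 0.94), 0.14 in Ing4-/- (adjusted p = 0.73) and 0.11 in Socs1-/- (adjusted p = 0.84), and its sign in wild type and Socs1-/- was negative under upper-quartile scaling (-0.08 and -0.02). Asl did not pass in any LPS comparison under any alternative run.

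The arginases split. Arg1, the cytosolic arginase known from alternatively activated macrophages (ENSMUSG00000019987, chromosome 10, 24915221 to 24927484, minus strand), had at most 4 counts in any library and was at 0 in 7 of 12. It did not pass the expression filter and was not tested, and 3 counts are the limit that a count of 0 allows. Of 7 markers of the same state 4 were tested, with a summed level of 11.2 to 50.3 CPM over all 7. Retnla and Chil3 were at 0 in all 12 libraries. Il4ra, the interleukin-4 receptor alpha chain, reached 24.1 CPM, Mrc1 17.8, Clec10a 13.8, Mgl2 2.4 and Cd163 0.0408 CPM. With all libraries edgeR called 1 of the 4 higher with LPS in Ing4-/-, where 4.73% of all tested genes were called higher. Arg2, the mitochondrial arginase (ENSMUSG00000021125, chromosome 12, 79130777 to 79156301, plus strand), was low but detected, at 0.131 to 0.599 CPM (3 to 13 counts) in the untreated libraries. LPS-treated wild-type libraries held 4.57 and 2.23 CPM, those of Ing4-/- 3.66 and 5.81, and those of Socs1-/- 3.95 and 3.54. All 6 LPS-treated libraries lay above all 6 untreated ones, and the first LPS-treated Socs1-/- library was among them, at 112% of the level of its partner. Arg2 rose with LPS, on the log2 scale, by 4.21 in wild type (edgeR, SE 0.684, adjusted p = 0.018), 3.68 in Ing4-/- (SE 0.638, adjusted p = 0.015) and 2.93 in Socs1-/- (SE 0.615, adjusted p = 0.049). It overlaps the opposite-strand gene Vti1b over 20.0% of its exon bases, and Vti1b held 1357 to 2320 counts. The labels give no strand setting for the counting, so the part of Vti1b reads in the Arg2 counts was not tested.

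Acod1 encodes aconitate decarboxylase, which makes itaconate (ENSMUSG00000022126, chromosome 14, 103046977 to 103056573, plus strand). It had 18.6 and 77.7 CPM in untreated wild type and 4971 and 7598 CPM after LPS. In Ing4-/- it went from 17.7 and 2.54 CPM to 7614 and 4531 CPM. In Socs1-/- it had 14.7 and 18.6 CPM untreated, and 993.5 and 8340 CPM after LPS. In 5 LPS-treated libraries it ranked between 5 and 10 among all genes by counts and took 0.396% to 0.736% of a library, and in the first LPS-treated Socs1-/- library it ranked 93. Acod1 rose, on the log2 scale, by 7.03 in wild type (edgeR, SE 1.4, adjusted p = 0.041), 9.23 in Ing4-/- (SE 1.54, adjusted p = 0.015) and 8.13 in Socs1-/- (SE 1.47, adjusted p = 0.032). These are about 131-fold, 599-fold and 280-fold changes, and the untreated levels they rest on ran from 2.54 to 77.7 CPM.

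Counted over the set, 2 of the 7 tested genes rose with LPS in wild type (Acod1 and Arg2), 4 in Ing4-/- (Acod1, Arg2, Ass1 and Slc7a2) and 2 in Socs1-/- (Acod1 and Arg2) with all 12 libraries and no pairing. Of all 12771 tested genes 2.89%, 8.02% and 1.98% were called in these comparisons, 1.89%, 4.73% and 1.57% as higher. Without the first LPS-treated Socs1-/- library 6 of 7 rose in every genotype, all but Asl, with edgeR adjusted p from 0.00034 to 0.023, against 14.5%, 20.4% and 15.8% of all genes called, 7.79%, 11.2% and 9.03% as higher. DESeq2 on all 12 libraries called 5, 6 and 4 of them, against 11.5%, 17.6% and 6.74% of genes. Paired by library number within genotype, which the labels do not state, edgeR called 6, 6 and 5, against 14.2%, 27.2% and 6.02% of genes. No member fell with LPS. All 6 LPS-treated libraries lay above all 6 untreated ones for Arg2, Acod1 and Gch1, an order found for 7.7% of all tested genes. Nos2, Ass1 and Slc7a2 joined them when that 1 library was left out, when 14.6% of genes were so ordered.

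**Figure D2:**
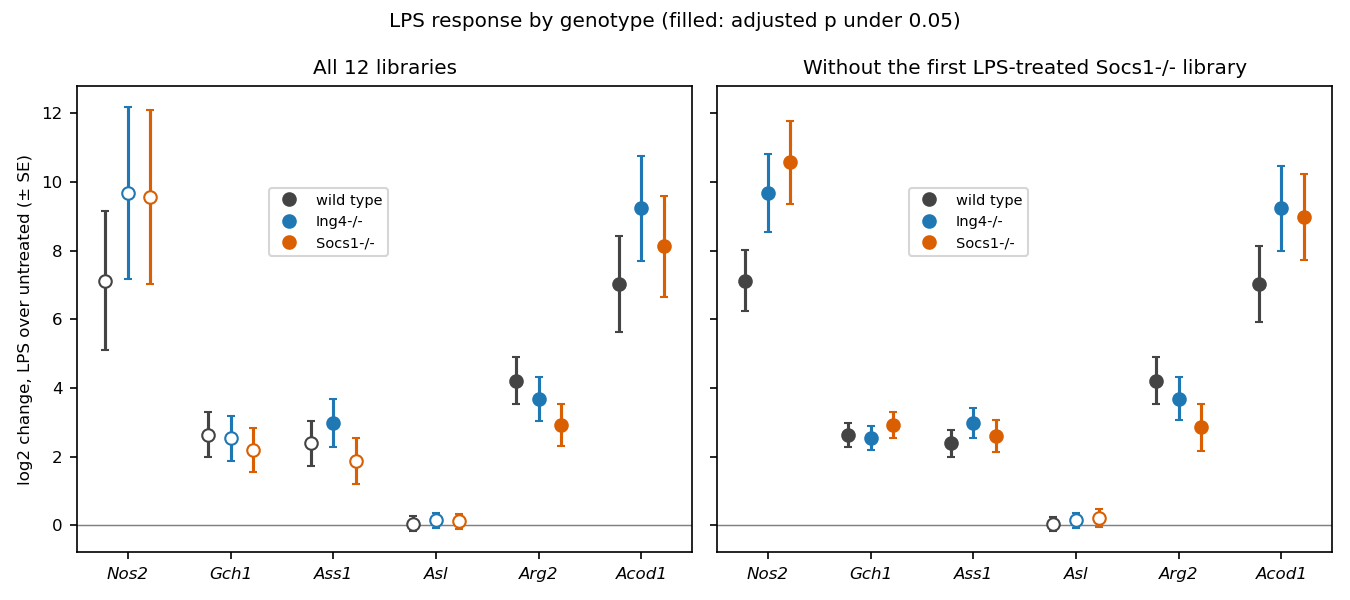
log2 change with LPS of 6 of the 8 genes by genotype, from edgeR with standard errors, with all 12 libraries (left) and without the first LPS-treated Socs1-/- library (right); filled symbols have an adjusted p under 0.05. The values of wild type and Ing4-/- lie in nearly the same places in both panels, those of Nos2, Gch1, Ass1 and Acod1 in Socs1-/- lie higher on the right, and the error bars of Nos2, Gch1 and Ass1 are shorter on the right; Slc7a2 is not drawn because it was nearly undetected without LPS.

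With 2 libraries a group, single libraries decided several of these calls. In wild type the Acod1 call was lost without either wild-type library of either treatment, either LPS-treated Ing4-/- library or either untreated Socs1-/- library (adjusted p 0.07 to 0.27), and the Arg2 call without either untreated wild-type library or the first LPS-treated one (0.089 to 0.2). In Ing4-/- the Acod1 call was lost without either untreated or the first LPS-treated Ing4-/- library (0.054 to 0.097), and the Arg2 call without the first untreated or the second LPS-treated one (0.071 to 0.083). The Ing4-/- calls of Ass1 and Slc7a2 were lost without any 1 of 10 libraries (0.06 to 0.2 and 0.058 to 0.18), the exceptions being the LPS-treated Socs1-/- libraries. In Socs1-/- the Acod1 call held without either untreated Ing4-/- library or either LPS-treated Socs1-/- library, and Arg2 without either untreated Ing4-/- library or the first LPS-treated Socs1-/- one. Leaving out the other libraries 1 at a time lost these calls, at adjusted p from 0.05 (rounded) to 0.28 for Acod1 and from 0.068 to 0.3 for Arg2. Leaving out either LPS-treated Socs1-/- library, the deviating one or its partner, gave 6 called genes in wild type and in Ing4-/-; without the partner 7.75% and 11.1% of all genes were called higher in these. All adjusted p in this paragraph are from edgeR.

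The first LPS-treated Socs1-/- library was not low in every enzyme. It held 0.418% of the Nos2 level of its partner, 0% of that of Slc7a2, 11.9% of that of Acod1, 21.2% of that of Gch1 and 21.8% of that of Ass1, but 87.3% of that of Asl and 112% of that of Arg2. Over the untreated Socs1-/- mean it lay higher by a log2 of 5.90 for Acod1, 2.80 for Arg2, 2.04 for Nos2, 0.73 for Gch1, 0.39 for Ass1 and 0.00 for Slc7a2 (log2 CPM with a prior count of 2). Its partner lay higher by 8.97, 2.64, 9.78, 2.96, 2.54 and 4.88 for the same genes. General LPS markers also stood lower in it: Il1b, a cytokine, at 196.3 CPM against 3865 in its partner, and Tnf at 1381 against 10530 CPM. Zfp36, an mRNA decay factor induced early, was at 506.3 against 424.9 CPM. Dose, time of harvest and sample handling of this library were not tested.

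**Figure D3:**
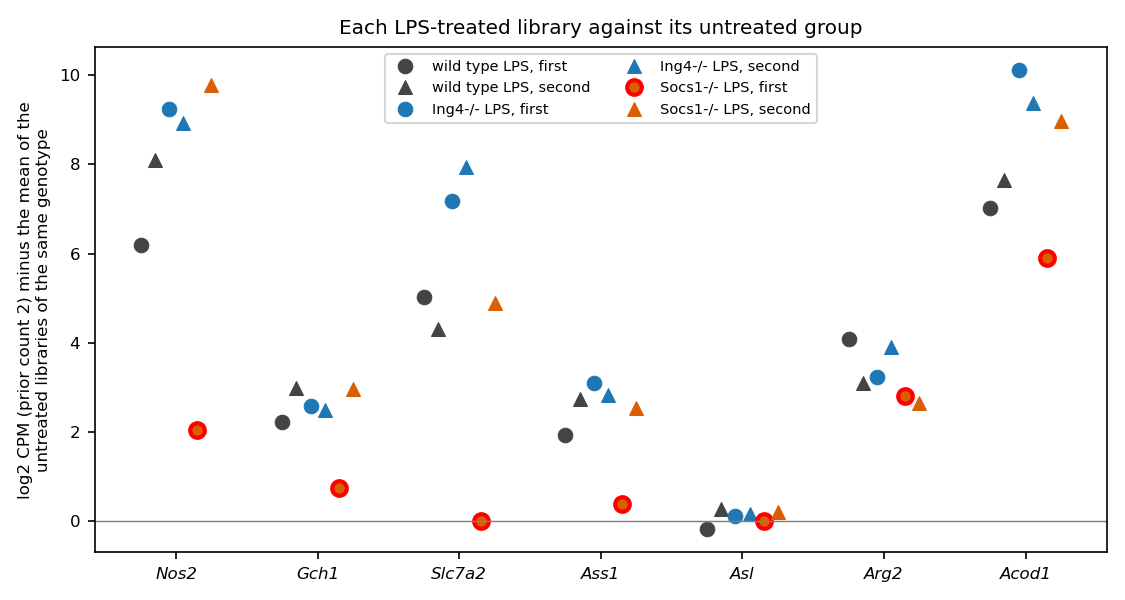
log2 CPM (prior count 2) of each LPS-treated library minus the mean of the untreated libraries of its genotype, for 7 genes; colours are genotypes, circles first and triangles second libraries, and the red outline marks the first LPS-treated Socs1-/- library. That library lies lowest of the 6 for Nos2, Gch1, Slc7a2, Ass1 and Acod1, but within the others for Asl and Arg2.

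For the knockouts against wild type the question was whether loss of Ing4 or Socs1 alters these enzymes before or after LPS. With edgeR and all 12 libraries 0 of 7 tested genes passed in any of the 4 comparisons, and 1 of 7, Ass1, had an unadjusted p under 0.05 in each. The background was low, with 0.141% and 0.102% of all genes called in Ing4-/- untreated and after LPS, and 0.047% and 0.0626% in Socs1-/-. DESeq2 called 1 member in untreated Ing4-/- (Ass1) and 0 in the other 3 comparisons, against 0.873% and 0.965% of genes for Ing4-/- and 0.655% and 1.64% for Socs1-/-. When the deviating library was left out, edgeR again called 0 members in each, against 0.347%, 0.302%, 0.181% and 0.0% of genes, and 3, 2, 2 and 1 members had an unadjusted p under 0.05.

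Ass1 was the gene with the most regular difference. In untreated cells all 4 knockout libraries (0.553 to 1.84 CPM) lay below both wild-type libraries (4.13 and 5.98 CPM), and after LPS all 4 (2.28 to 10.5 CPM) lay below 19.0 and 33.8 CPM. This order held for 11.4% of all tested genes untreated, 8.43% after LPS and 4.56% in both treatments, and Ass1 was the only one of the 8 members to show it in both treatments. The log2 difference of Ing4-/- from wild type was -2.46 untreated (SE 0.696, edgeR adjusted p = 0.46) and -1.87 after LPS (SE 0.638, adjusted p = 0.56). That of Socs1-/- was -1.55 untreated (SE 0.663, adjusted p = 0.95) and -2.06 after LPS (SE 0.644, adjusted p = 0.33). Without the first LPS-treated Socs1-/- library the edgeR adjusted p were 0.067, 0.11, 0.3 and 0.38 in the same order, still above the threshold, and in a fit to the compared groups alone untreated Ing4-/- reached 0.04, where 1.48% of genes were called. DESeq2 gave adjusted p = 0.026, 0.17, 0.63 and 0.056. Over 18 alternatives the adjusted p ran up to 1 in each comparison, and the sign was negative in all of them. The lowest edgeR adjusted p were 3.5e-07, 8.1e-05, 0.0063 and 4.7e-06. They came from the fit with no filter on low counts, where 516, 539, 429 and 919 of 23947 genes were called.

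The other genes differed less regularly. Nos2 was lower in all 4 untreated knockout libraries (0.0436 to 0.231 CPM) than in both untreated wild-type libraries, an order shared by that 11.4% of genes, at 1 to 5 counts per knockout library. Its log2 difference was -3.73 in untreated Ing4-/- (SE 2.62) and -3.94 in untreated Socs1-/- (SE 2.71), with edgeR adjusted p = 1 for both. After LPS it was -1.17 (SE 1.53, adjusted p = 0.94) and -1.49 (SE 1.54, adjusted p = 0.77), and the groups overlapped. Slc7a2 after LPS was 18.6 ± 6.85 CPM in Ing4-/- against 2.92 ± 1.04 CPM in wild type (SD, n = 2), a log2 difference of 2.67 (SE 1.35, edgeR adjusted p = 0.8). Leaving out the first LPS-treated Socs1-/- library, its SE was 0.463 and its adjusted p 0.096, and in the fit to LPS-treated wild type and Ing4-/- alone it passed (adjusted p = 0.038, with 0.6% of genes called), within a range of 1.5e-06 to 1 over the alternatives. Acod1 after LPS differed from wild type by a log2 of -0.05 in Ing4-/- (SE 1.08) and -0.43 in Socs1-/- (SE 1.08), the latter turning to 0.41 without the deviating library. In untreated cells Acod1 was at 17.7 and 2.54 CPM in Ing4-/-, both below the wild-type libraries at 18.6 and 77.7 CPM (log2 -2.25, SE 1.14), and Arg2 was higher in both Socs1-/- libraries (log2 1.42, SE 0.711), each with edgeR adjusted p = 1. These orders were common, held by 20.1% of all tested genes for untreated Ing4-/- below wild type and 19.0% for untreated Socs1-/- above it. In the remaining comparisons Arg2, Gch1 and Asl had edgeR adjusted p of 0.68 or more. After LPS the log2 differences of Nos2, Gch1 and Slc7a2 in Socs1-/- rested largely on the first LPS-treated Socs1-/- library. They were -1.49, -0.81 and -1.15 with that library and -0.49, -0.08 and -0.11 without it. The difference of Ass1 was smaller without it but kept its sign (-2.06 with it, -1.33 without it). Those of Asl (-0.23 and -0.14) and Arg2 (0.14 and 0.06) changed little. Leaving out its partner instead, edgeR called 4 members (Nos2, Ass1, Slc7a2 and Gch1) lower than wild type, against 4.69% of all tested genes called lower.

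**Figure D4:**
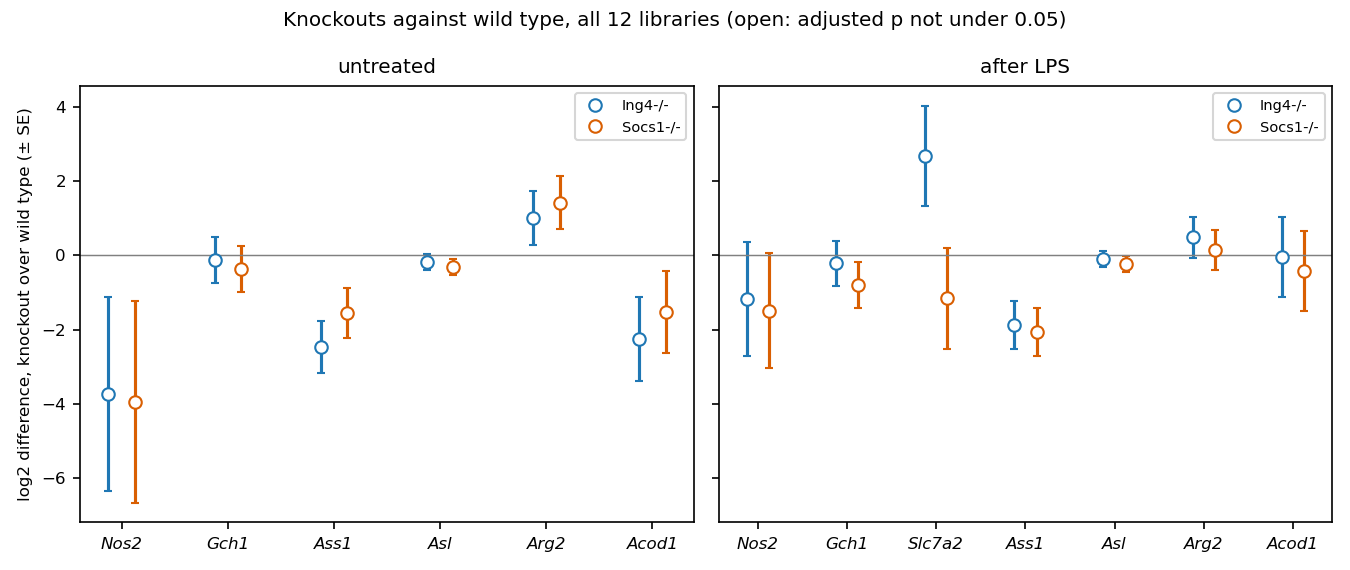
log2 difference of each knockout from wild type, untreated (left) and after LPS (right), with edgeR standard errors and all 12 libraries; open symbols have an adjusted p of 0.05 or more. All symbols are open; Ass1 lies below 0 in all 4 comparisons, and Slc7a2, drawn only after LPS, lies above 0 in Ing4-/- and below it in Socs1-/-.

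The size of the LPS response itself was compared between genotypes by the difference of log2 changes. With edgeR 0 of 7 members passed for either knockout, 0 had an unadjusted p under 0.05, and DESeq2 also called 0. Of all genes 0.0% were called by either tool. The values for Ing4-/- minus wild type were 2.56 for Nos2 (SE 3.15), 2.2 for Acod1 (SE 1.55), 0.6 for Ass1 (SE 0.911), 0.1 for Asl, -0.1 for Gch1 and -0.52 for Arg2 (SE 0.886). For Socs1-/- minus wild type they were 2.44 for Nos2 (SE 3.27), 1.1 for Acod1 (SE 1.54), 0.08 for Asl, -0.44 for Gch1, -0.51 for Ass1 and -1.28 for Arg2 (SE 0.891). The edgeR adjusted p was 1 for all of them. Slc7a2, nearly undetected without LPS, had differences of 4.92 (SE 5.52) for Ing4-/- and 1.09 (SE 2.87) for Socs1-/-, which did not pass either.

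Levels of different genes were set side by side per kilobase of exon. In untreated wild type Acod1 led with 18.4 ± 15.9 CPM per kb, followed by Asl (6.89 ± 1.77), Gch1 (2.57 ± 0.822), Ass1 (2.09 ± 0.542), Nos2 (0.424 ± 0.402) and Arg2 (0.125 ± 0.00271; SD, n = 2). After LPS the wild-type order was Acod1 (2396 ± 708.3), Nos2 (59.2 ± 48.5), Gch1 (15.9 ± 5.81), Ass1 (10.95 ± 4.34), Asl (7.07 ± 1.58), Arg2 (2.38 ± 1.16) and Slc7a2 (0.319 ± 0.114 CPM per kb). Acod1 transcripts thus stood above those of Nos2 in both treatments, and Nos2 moved in the order from below Ass1 and Asl to above both. Neighbours that did not differ beyond their spread were Acod1 and Asl, Gch1 and Ass1, and Nos2 and Arg2 before LPS, and Nos2 and Gch1, Gch1 and Ass1, and Ass1 and Asl after it.

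In the arginine and nitric oxide list (29 genes, 21 tested) 1 gene, Odc1, rose with LPS in each genotype and 0 fell, against 2.89%, 8.02% and 1.98% of all genes called in wild type, Ing4-/- and Socs1-/-, with a median log2 change of -0.09 in wild type against 0.008 for all genes. Odc1, ornithine decarboxylase, takes the ornithine that arginases make into polyamines. Its levels were 480.1 and 485.1 CPM in untreated wild type and 4188 and 3754 CPM after LPS, a log2 change of 3.04 (SE 0.278, edgeR adjusted p = 0.00099). It rose by 3.29 in Ing4-/- (adjusted p = 0.00046) and 1.91 in Socs1-/- (adjusted p = 0.0079). Odc1 was also the 1 list gene that edgeR called between genotypes with all libraries: LPS-treated Socs1-/- libraries held 785.9 and 787.6 CPM, a log2 difference from wild type of -2.34 (SE 0.27, edgeR adjusted p = 0.023). Without the first of these libraries the difference was -2.33 and the adjusted p 0.14, where 0 of all genes were called. DESeq2 called Odc1 lower than wild type in both knockouts, untreated and after LPS, at adjusted p between 1.2e-14 and 0.0081. It called 0.873% and 0.965% of genes in Ing4-/- untreated and after LPS, and 0.655% and 1.64% in Socs1-/-. All 8 knockout libraries lay below the wild-type libraries of the same treatment, an order held by 4.56% of all tested genes.

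The tetrahydrobiopterin list (7 genes, 6 tested) and the itaconate and tricarboxylic acid cycle list (28 genes, 27 tested) had 0 genes called with LPS in any genotype by edgeR with all libraries, and at most 1 each with an unadjusted p under 0.05; DESeq2 called 0, except 1 cycle gene in Ing4-/-. Their medians in wild type were -0.02 and 0.00. The log2 changes of Gch1 and Acod1 in wild type were larger than that of any tested gene on the 2 lists. As members and lists were chosen with earlier results known, this contrast is a description and not a test. Without the first LPS-treated Socs1-/- library 3, 3 and 4 of 22 arginine list genes were called in wild type, Ing4-/- and Socs1-/-, and 1 of 6 and 1 of 27 on the other lists in each, against the 14.5%, 20.4% and 15.8% of all genes. Some are named here after their values were seen. The transporter subunit Slc3a2 rose in all 3 genotypes (log2 0.69 in wild type, edgeR adjusted p = 0.043), and Slc7a1, the constitutive arginine transporter CAT1, rose in Ing4-/- (0.58, adjusted p = 0.044) and Socs1-/- (0.71, adjusted p = 0.049). Glul, glutamine synthetase, and Slc25a10, a mitochondrial dicarboxylate carrier, fell in wild type and Socs1-/-. Sdha, the succinate dehydrogenase subunit of the enzyme that itaconate inhibits, stood at 349.0 and 341.5 CPM in untreated wild type and 184.9 and 174.9 CPM in untreated Ing4-/-. Sdha was lower in Ing4-/- without that library both untreated (log2 -0.94, SE 0.142) and after LPS (-0.97, SE 0.142, edgeR adjusted p = 0.035 each). With all 12 libraries the adjusted p for Sdha were 0.078 and 0.076 with edgeR, and 1.1e-05 and 4.3e-06 with DESeq2, which called it.

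**Figure D5:**
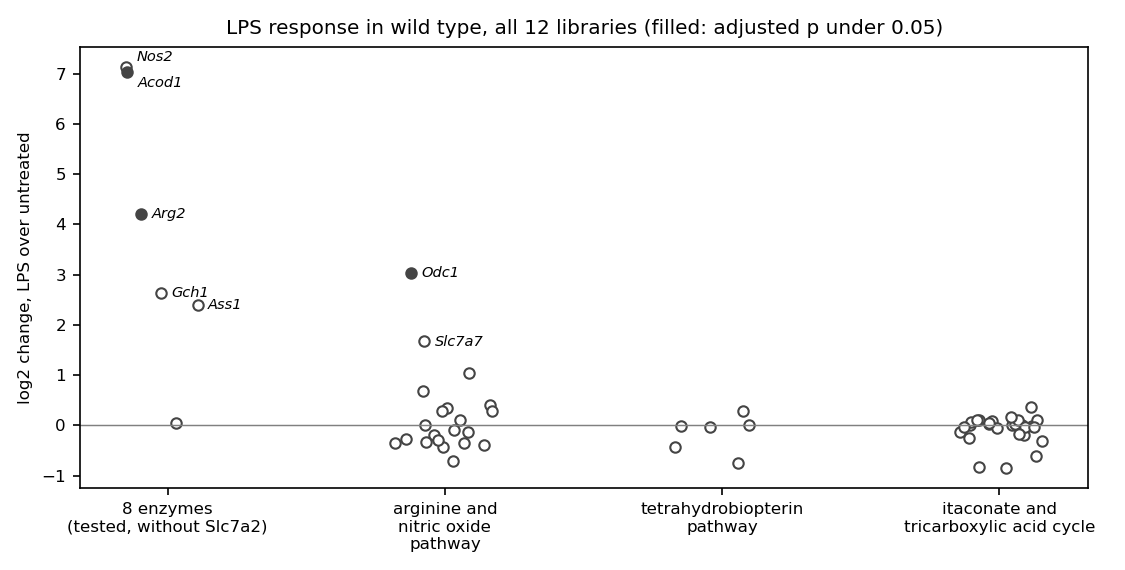
log2 change with LPS in wild type from edgeR with all 12 libraries, for the 6 plotted enzymes of the set and for the tested genes of 3 other lists; each point is a gene, filled where the adjusted p is under 0.05, and genes beyond 1.5 are named. Most genes of the 3 lists lie close to 0, while Nos2, Acod1, Arg2, Gch1 and Ass1 lie above 2. Set and lists were chosen with earlier results of these data known.

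Across the 12 libraries the members followed each other to different degrees, and these correlations of log2 CPM are descriptions of libraries that share treatment and depth. Nos2 was closest to Gch1 (Pearson r = 0.977), then Acod1 (0.924), Slc7a2 (0.9) and Ass1 (0.897), while Arg2 and Ass1 were at 0.55 and Arg2 and Asl at 0.112. Among 11060 tested genes with an established symbol the nearest in pattern to Nos2 were Ifi202b (0.989), Gbp9 (0.986) and Anxa7 (0.986). Those nearest to Gch1 were Casp4 (0.993), Prkx (0.989) and Gbp3 (0.989). For Acod1 they were Mtmr14 (0.991), Cdc42ep2 (0.987) and the chemokine gene Ccl5 (0.984), and for Slc7a2 Dr1 (0.979), Sap30 (0.977) and Slc25a37 (0.976). Genes near Ass1 were Eml4 (0.971) and Dld (0.971), and Arg2 was closest to Picalm (0.972), Adora2b (0.969) and Rlim (0.967). Asl had lower values, with Anxa2 (0.897), Mtus1 (0.881) and Anxa4 (0.881).

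The authors' deposited table for LPS in wild type lists 867 genes, among them Acod1 (shrunken log2 3.07, adjusted p = 6.8e-06), Arg2 (2.85, 1.8e-06), Gch1 (2.11, 0.00025), Ass1 (1.91, 0.0022) and Nos2 (1.67, 0.021), by the authors' own test with DESeq2. In the authors' deposited table of LPS-treated Socs1-/- over LPS-treated wild type Ass1 is the 1 member of 183 genes listed (shrunken log2 -1.66, adjusted p = 0.037). None of the 8 genes is in the authors' deposited tables of the other 3 comparisons, and Slc7a2, Asl and Arg1 are in none of the 5.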

How the data were processed

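PolyA-selected RNA (stranded TruSeq kit, 75-base single-end reads, per the labels' protocols) was measured in 12 libraries, 2 in each of 6 groups taken from the labels. The authors deposited whole-number read counts per Ensembl gene. FastQC, HISAT, StringTie, HTSeq and DESeq2 are named, without versions, in the submitters' processing notes. Their notes name the human build GRCh38 and the labels' treatment protocol names HEK293T cells, but every gene identifier is of the mouse, the samples are labelled RAW 264.7, and of the 1084 positions that the authors' tables list 94.83% are those of GRCm38. The authors' deposited tables give shrunken log2 fold changes, p-values and a normalized signal per library, and were used only where named.

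Counts were tested with edgeR 4.0.16 (R 4.3.3): filterByExpr, which left 12771 genes and 7 of the 8 members, TMM scaling, 6 group means, the quasi-likelihood F-test and Benjamini-Hochberg adjustment over all tested genes, called at an adjusted p under 0.05. The test was checked on simulated counts with the same spread for every gene, changes in well-counted genes only and no deviating library. That check therefore does not bear on low counts or on the library that stands apart. Standard errors are the log2 change divided by the square root of F. DESeq2 1.42.0, other scalings, filters, fits, replicate blocks and leaving out each library were alternatives. Exon lengths and positions are from GENCODE M21. Every member is named, as are called list genes and the 3 genes nearest in pattern to each member. Some genes that this rule would name are not reported here. The members and lists were chosen with earlier results of these data known.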

Additional observations from a re-analysis of the deposited data

How the results depend on the processing

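The number of members called rose or fell with the processing. For LPS in wild type it was 2, and 3 with a replicate block, 6 with a replicate block within genotype, 6 with no filter on low counts, 6 with the compared groups alone and 5 with DESeq2, with a range of 0 to 6 when 1 library was left out. For LPS in Ing4-/- it was 4, and 6 under those 5 settings, with a range of 0 to 6. For LPS in Socs1-/- it was 2, and 1 with upper-quartile scaling or a replicate block, 5 with the block within genotype, 6 with no filter, 0 with the compared groups alone and 4 with DESeq2, with a range of 0 to 6. With no filter (23947 genes tested) 3 members passed in each of the 4 knockout comparisons, and 2 and 1 in the differences of responses for Ing4-/- and Socs1-/-, where 516, 539, 429 and 919 genes in all passed in the knockout comparisons (Ing4-/- untreated and after LPS, then Socs1-/-) and 26 and 64 in the differences. In untreated Ing4-/- against wild type 1 passed with the compared groups alone and 1 with DESeq2, and after LPS 1 with the compared groups alone. For LPS-treated Socs1-/- against wild type leaving out 1 library gave 0 to 4, the 4 without the second LPS-treated Socs1-/- library, where 1196 of 13293 genes passed. The cause was not tested. Over all genes the calls for LPS in wild type, Ing4-/- and Socs1-/- were 369, 1024 and 253, and 2080, 2588 and 1462 with no filter, 2197, 1820 and 0 with the compared groups alone, and 1811, 3471 and 769 with the block within genotype.

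Library numbers were treated as names: with them, deviations correlated between treatments of a genotype (0.4474, 0.601 and 0.5651) but from -0.1289 to 0.1556 between genotypes. With the replicate block within genotype Nos2 had edgeR adjusted p of 0.0046, 0.003 and 0.01 for LPS in wild type, Ing4-/- and Socs1-/-, Gch1 0.011, 0.0085 and 0.034, and Slc7a2 0.012, 0.0032 and 0.031, and the Nos2 differences of responses were 2.49 (SE 1.12) and 2.15 (SE 1.26), adjusted p = 1. Of 1092 single-gene values under alternatives 930 kept direction and side of the threshold, 56 were no longer called, 74 became called and 32 turned sign. The changes of sign were of values that had not passed the test. With upper-quartile scaling, which moved the median of all genes by about -0.11 to -0.13, Asl turned to -0.08 in wild type and -0.02 in Socs1-/- with LPS, and with a replicate block Acod1 in LPS-treated Ing4-/- against wild type turned to 0.06. Leaving out 1 library, Asl with LPS in wild type ran from -0.21 to 0.31. In Ing4-/- against wild type untreated, Gch1 ran from -0.42 to 0.24, Asl from -0.43 to 0.10 and Arg2 from -0.43 to 1.72, and after LPS Gch1 from -0.56 to 0.21, Asl from -0.30 to 0.16, Acod1 from -0.47 to 0.29 and Nos2 from -1.83 to 0.07. In Socs1-/- against wild type, Gch1 ran from -0.84 to 0.01 untreated, and after LPS Asl from -0.45 to 0.01, Acod1 from -2.66 to 0.41 and Arg2 from -0.29 to 0.75. In the differences for Ing4-/- Gch1 ran from -0.47 to 0.33, Asl from -0.20 to 0.35 and Arg2 from -1.24 to 0.91. In those for Socs1-/- Gch1 ran from -1.95 to 0.29, Asl from -0.22 to 0.32, Acod1 from -1.14 to 1.94, Nos2 from -4.45 to 3.69 and Ass1 from -1.98 to 0.22. Depth limits Arg1, Slc7a2 without LPS and Nos2 without LPS, all near 3 counts in most libraries.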
